A study of Arabidopsis thaliana with 12 samples.

Results

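Transcripts of 10 genes that make and load microRNAs were followed across 4 genotypes of Arabidopsis thaliana. The genes were listed by locus with no rule on a measured value, though earlier results of these data were known. They were DCL1 (AT1G01040), HYL1 (AT1G09700), SE (AT2G27100), TGH (AT5G23080), DDL (AT3G20550), CBP20 (AT5G44200), CBP80 (AT2G13540), HEN1 (AT4G20910), HST (AT3G05040) and AGO1 (AT1G48410). All 10 were found among the 32833 genes of the deposited count table, and all 10 passed the filter on low counts, as did 20471 genes in all.

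RNA had been sequenced from whole seedlings 12 days after germination, with 3 libraries for each of 4 genotypes and 12 in all. The wild type was Columbia-0 (Col-0), and the mutants were nrpb2-3, ssrp1-2 and spt16-2, each named in the labels by its allele alone. All groups were treated alike: seeds were kept for 4 days at 4 °C and plants were grown on soil at about 21 °C in long days. Nothing in the labels tells if the 3 replicates of a genotype were sown apart, so p-values measure the spread between these libraries, which may be technical. NRPB2 is the second-largest subunit of RNA polymerase II (Pol II), and SSRP1 and SPT16 are the subunits of the histone chaperone FACT, which handles nucleosomes in the path of Pol II.

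Plant microRNAs are transcribed by Pol II as long primary transcripts that carry a hairpin and a cap. The cap-binding proteins CBP20 and CBP80 hold the cap, and the nuclease DCL1 cuts the hairpin out with the help of HYL1, SE, TGH and DDL. HEN1 then methylates the ends of the duplex, HST takes part in export from the nucleus, and AGO1 holds the mature strand and cuts the matching messenger RNA. The pathway is known to act on itself, since DCL1 and AGO1 messengers are themselves targets of microRNAs.

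The sequences of that feedback are shown because they tie 2 of the 10 genes to transcripts measured in the same libraries. They were read from the RefSeq genome TAIR10.1. The seed, bases 2 to 8 counted from the 5′ end of the microRNA, is in capitals:
miR162a-3p: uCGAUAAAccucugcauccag
miR168a-5p: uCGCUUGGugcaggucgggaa
miR838: uUUUCUUCuacuucuugcaca
miR403-3p: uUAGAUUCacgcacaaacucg
No 2 of these 4 microRNAs share a seed, and the b copies miR162b-3p and miR168b-5p have the same mature sequence as the a copies. miR162 is known to target DCL1, miR168 to target AGO1 and miR403 to target AGO2. miR838 is encoded inside DCL1, on the plus strand at chr1:28635-28655, in intron 14.

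The best matching stretch of each target messenger was then found in the annotated transcripts. The bases that face the seed are in capitals, 5′ to 3′:
DCL1 site of miR162: cuggaugcagaggUAUUAUCGa
AGO1 site of miR168: uucccgagcugcaUCAAGCUa
AGO2 site of miR403: ggaguuugugcguGAAUCUAa
In DCL1 the 22-base site paired with all 21 bases of miR162a-3p and left 1 base of the messenger unpaired, at position 15 of the site from its 5′ end and so within the capitals. It is coding sequence on the plus strand and is split by an intron, with 12 bases at the end of exon 12 (chr1:27522-27533) and 10 bases at the start of exon 13 (chr1:27618-27627) of 20 exons. The other annotated form of DCL1 keeps 3 more bases at the end of exon 12, shown in capitals here, and so has an interrupted site:
DCL1 longer form: cuggaugcagagGUUguauuaucga
The gene-level counts do not separate these 2 forms. In AGO1 the site lies in the coding part of exon 2 of 23 on the minus strand (chr1:17891529-17891549), with 18 of 21 bases paired, 1 G-U pair and 2 mismatches. The AGO2 site lies in the 3′ UTR (chr1:11185223-11185243, plus strand), with 20 of 21 bases paired.

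Each library held 39483328 to 43434901 counts over all genes, and the 10 genes together had 8533 to 22239 counts per library. Levels are given as scaled CPM, the count as a share of the library's total after TMM scaling, and a gene was called at an adjusted p under 0.05 (edgeR's quasi-likelihood test, Benjamini-Hochberg over the 20471 tested genes). The genes named by the mutant alleles come first, as a test of the labels. SSRP1 was at 38.9 to 48.4 scaled CPM in Col-0 and at 17.9 to 20.7 in ssrp1-2, which passed the test (adjusted p = 0.00046). SPT16 was at 44.9 to 62.0 in Col-0 and at 27.8, 55.4 and 30.0 in spt16-2, which did not (adjusted p = 0.54). The library labelled spt16-2 replicate 2 thus lay within the Col-0 range, and each spt16-2 result is given with this in view. NRPB2 was at 36.5 to 47.3 in Col-0 and at 65.4 to 69.2 in nrpb2-3 (adjusted p = 0.0013, higher), and a gene-level count says nothing of the protein made from a mutant allele.

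In nrpb2-3, 6 of the 10 genes rose against Col-0 and none fell. TGH, HEN1, DCL1, AGO1, DDL and HST passed the test, with fold changes from 1.41 (HST) to 1.57 (HEN1). HYL1, SE, CBP20 and CBP80 did not pass. Among all tested genes 30.9% were called in this comparison, with 15.8% higher and 15.1% lower. The median log2 fold change of the 10 genes was 0.50, beside 0.05 for all tested genes. In ssrp1-2 and in spt16-2, 0 of 10 genes passed.

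**Figure D1:**
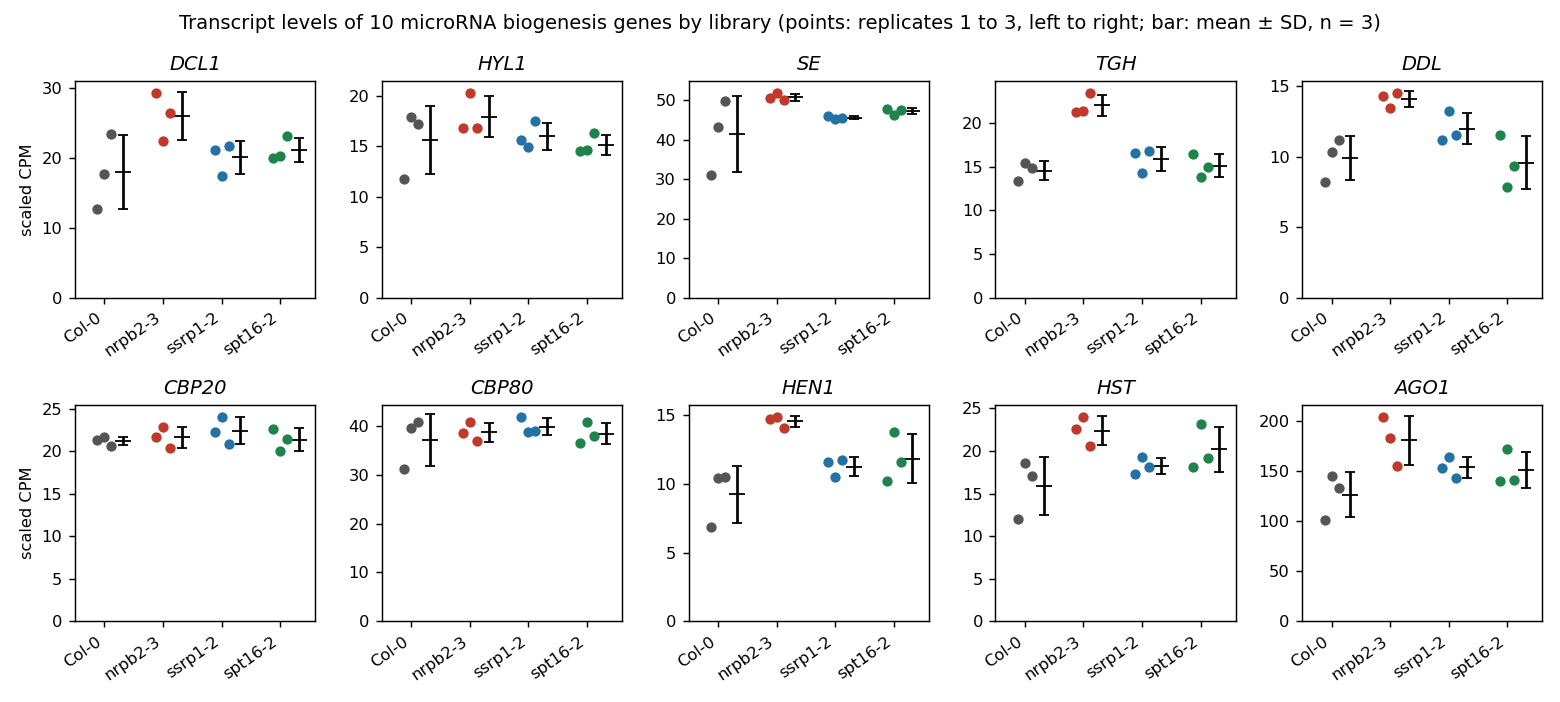
Scaled CPM (vertical axis, linear and from 0) of the 10 genes in each library, by genotype, with 1 point per replicate and the mean ± SD of 3 libraries beside them. For TGH, HEN1, DDL and SE all 3 nrpb2-3 libraries lie above the other 9 libraries (for SE the gap is very small), and Col-0 replicate 1 is the lowest library for 8 of 10 genes. Neither count was made over all tested genes.

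DCL1 (chr1:23121-31227, plus strand, TAIR10.1) encodes the nuclease at the centre of the pathway. Its level was 12.7, 17.8 and 23.4 scaled CPM in Col-0 replicates 1 to 3, and 29.3, 22.4 and 26.5 in nrpb2-3. In ssrp1-2 it was 21.1, 17.4 and 21.7, and in spt16-2 it was 19.96, 20.2 and 23.2. The Col-0 libraries were the most spread of the 4 groups, and the highest of them lay above the lowest nrpb2-3 library. The log2 fold change in nrpb2-3 was 0.53 ± 0.19 (SE), a 1.45-fold rise that passed the test narrowly (adjusted p = 0.043). DCL1 lost this call without Col-0 replicate 1 (0.34, adjusted p = 0.14) or 2 (adjusted p = 0.092) and without nrpb2-3 replicate 1 (0.43, adjusted p = 0.15) or 3 (adjusted p = 0.11). The DCL1 locus overlaps MIR838 over 207 bases on the same strand. On the opposite strand it overlaps AT1G03993, which had 0 counts in all 12 libraries, over 788 bases and the tested gene PPa1 over 58 bases, and whether the authors' counting used strand is not given in the sources used here.

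HYL1 and SE are the partners that help DCL1 cut at the right place. HYL1 (chr1:3137649-3140353, minus strand) was at 11.7, 18.0 and 17.2 scaled CPM in Col-0 and at 16.8, 20.3 and 16.8 in nrpb2-3. It overlapped between these groups, and its log2 difference of 0.20 ± 0.16 was not called (adjusted p = 0.35, 95% interval −0.14 to 0.54). SE (chr2:11572397-11576658, plus strand), a zinc finger protein, was at 31.0, 43.3 and 49.9 in Col-0 and at 50.6, 51.8 and 49.9 in nrpb2-3. The nrpb2-3 libraries stood just above every other library, since the lowest of them was at 49.944 and Col-0 replicate 3 at 49.931. Its log2 difference of 0.29 ± 0.14 was not called (adjusted p = 0.12, interval −0.0046 to 0.59). In the mutants of FACT, HYL1 lay between 14.5 and 17.5 and SE between 45.2 and 47.7, both inside the Col-0 range. The HYL1 locus shares 36 bases with the tested gene AT1G09690 on the same strand.

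TGH and DDL are RNA-binding factors that associate with primary transcripts, and DDL also binds DCL1. TGH (chr5:7742940-7749020, minus strand) was at 13.3, 15.4 and 14.9 scaled CPM in Col-0, and at 21.3, 21.4 and 23.4 in nrpb2-3. It was at 16.5, 14.3 and 16.8 in ssrp1-2, and at 16.5, 13.9 and 15.006 in spt16-2. The 9 libraries that are not nrpb2-3 thus fell in 1 narrow band up to 16.8, and the nrpb2-3 libraries stood clear of it. The rise was 0.60 ± 0.12 on the log2 scale, or 1.52-fold, with the smallest adjusted p of the 10 genes (0.0023), and it was called under each of the alternatives tried. TGH shares 39 bases with the tested gene TK1b on the opposite strand.

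DDL (chr3:7174436-7178020, minus strand) was at 8.19, 10.3 and 11.2 scaled CPM in Col-0, and at 14.3, 13.5 and 14.5 in nrpb2-3. It was at 11.2, 13.2 and 11.5 in ssrp1-2, and at 11.6, 7.85 and 9.33 in spt16-2. Every nrpb2-3 library was above all others, though the lowest, at 13.5, was close to ssrp1-2 replicate 2. The log2 fold change in nrpb2-3 was 0.51 ± 0.16 (1.42-fold, adjusted p = 0.028). It was not called without any 1 of Col-0 replicates 1 and 2 or the 3 nrpb2-3 libraries, with log2 values of 0.39 to 0.54 there.

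CBP20 and CBP80 form the nuclear cap-binding complex, which acts on messenger RNA as well as on primary microRNA transcripts. CBP20 was the steadiest of the 10 genes, at 21.3, 21.6 and 20.7 scaled CPM in Col-0 and 21.7, 22.8 and 20.4 in nrpb2-3, with 20.1 to 24.1 over all 12 libraries. It lies at chr5:17801737-17804203 on the minus strand, and CBP80 at chr2:5636884-5643066 on the plus strand. The log2 difference of CBP20 in nrpb2-3 was 0.03 ± 0.10, with a 95% interval of −0.19 to 0.25. CBP80 was at 31.1, 39.6 and 40.7 in Col-0 and at 38.5, 40.7 and 36.9 in nrpb2-3, a log2 difference of 0.06 ± 0.11 (interval −0.19 to 0.31). Neither gene was called in any of the 5 comparisons, and in nrpb2-3 each interval leaves room for a rise of 0.25 (CBP20) or 0.31 (CBP80) on the log2 scale. With library totals both were called in nrpb2-3, along with most genes.

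HEN1 (chr4:11185936-11191123, minus strand), which methylates the 3′ ends of the duplex, was at 6.88, 10.4 and 10.5 scaled CPM in Col-0, and at 14.7, 14.9 and 14.1 in nrpb2-3. It was at 11.6, 10.5 and 11.7 in ssrp1-2, and at 10.2, 13.8 and 11.6 in spt16-2. All 3 nrpb2-3 libraries lay above the rest, with the library labelled spt16-2 replicate 2 next. HEN1 had the largest fold change of the 10 genes, 0.65 ± 0.17 on the log2 scale or 1.57-fold (adjusted p = 0.0098). It stayed called under each alternative, with 0.48 and an adjusted p of 0.029 without Col-0 replicate 1.

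HST (chr3:1401171-1408302, minus strand), an exportin, was at 12.1, 18.6 and 17.1 scaled CPM in Col-0, and at 22.5, 24.0 and 20.6 in nrpb2-3. It was at 17.3, 19.3 and 18.1 in ssrp1-2, and at 18.2, 23.2 and 19.2 in spt16-2. The groups Col-0 and nrpb2-3 did not overlap, while spt16-2 replicate 2 reached into the nrpb2-3 range. The log2 fold change in nrpb2-3 was 0.49 ± 0.16 (1.41-fold, adjusted p = 0.028), and the call was lost without Col-0 replicate 1 (0.33, adjusted p = 0.091). It was lost too when nrpb2-3 replicate 1 or 2 was left out (adjusted p = 0.073 and 0.094).

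AGO1 (chr1:17885633-17892632, minus strand), the Argonaute that carries most microRNAs, was at 101.3, 145.2 and 133.5 scaled CPM in Col-0, and at 204.4, 182.9 and 155.5 in nrpb2-3. It was at 153.7, 164.8 and 143.1 in ssrp1-2, and at 140.4, 171.9 and 141.0 in spt16-2. Col-0 and nrpb2-3 did not overlap, and the 2 other mutants lay between them, partly inside both ranges. The log2 fold change in nrpb2-3 was 0.51 ± 0.15 (1.43-fold, adjusted p = 0.021). Leaving out Col-0 replicate 1 ended the call (0.38, adjusted p = 0.075), as did leaving out nrpb2-3 replicate 1 or 2 (adjusted p = 0.098 and 0.054).

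**Figure D2:**
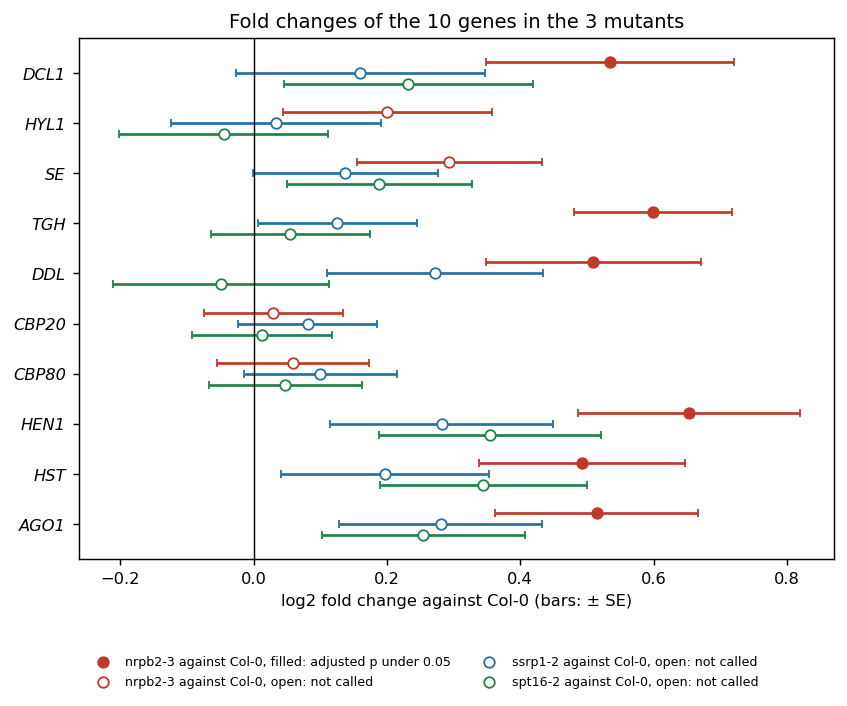
Log2 fold change against Col-0 (horizontal axis, with the SE as bars) of the 10 genes in nrpb2-3, ssrp1-2 and spt16-2, with filled points for an adjusted p under 0.05. The 6 filled points are all in nrpb2-3, between 0.49 and 0.65, and with this TMM scaling CBP20 and CBP80 lie between 0.01 and 0.10 in every mutant.

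The count of 6 depended on the libraries used. Col-0 replicate 1 was the lowest of the 12 libraries for 8 of the 10 genes, with a median log2 deviation of −0.51 from the genes' means, where the other 11 libraries lay between −0.07 and 0.30. Its total of 40247060 counts was not low. It had the fewest genes with a count (21516, where the other 11 had 22046 or more). Its rRNA share was 1.23% (0.18 to 0.50% in the other 11) and its organelle share 0.47% (0.08 to 0.21% in the other 11). How many of all tested genes were lowest in this library was not counted. Without it, 2 of 10 genes passed in nrpb2-3 (HEN1 and TGH), and the median log2 fold change over the 10 was 0.33. Without nrpb2-3 replicate 1 the same number passed, again HEN1 and TGH, without nrpb2-3 replicate 2 the count was 3 (DCL1, HEN1 and TGH), and with Col-0 and nrpb2-3 fitted alone it was 3 (HEN1, TGH and DDL). Scaling by library totals in place of TMM raised the median of all tested genes from 0.05 to 0.59, with 10688 genes called higher and 758 lower where TMM gave 3238 and 3097. All 10 genes were then called higher, and relative to the median of all genes their own median was 0.44, beside 0.45 with TMM. A change of scaling moves every gene by nearly the same amount, so these 2 values had to be close and do not test the scaling.

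**Figure D3:**
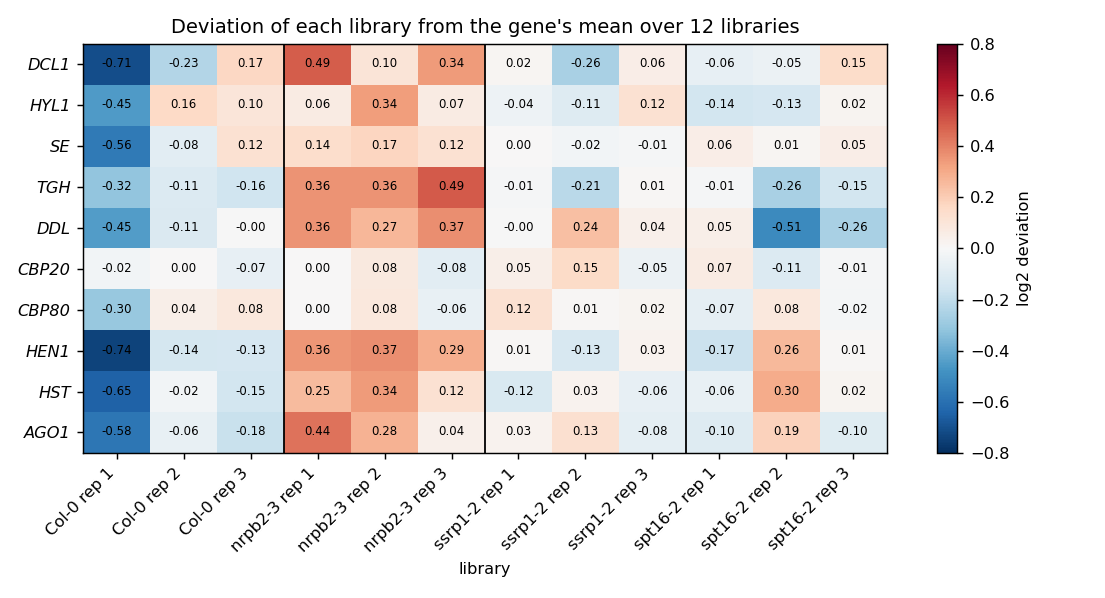
Log2 deviation of each library (columns, by genotype) from the mean of the gene over 12 libraries (rows), as colour and number. Col-0 replicate 1 is between −0.30 and −0.74 for 9 genes and at −0.02 for CBP20, and the nrpb2-3 columns are positive for DCL1, HYL1, SE, TGH, DDL, HEN1, HST and AGO1.

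Other measures of the seedlings moved with nrpb2-3 too. The 5 leaf photosynthesis markers (RBCS1A, RCA, CAB1, LHCB2.1 and PSAD1) summed to 75402 to 90625 scaled CPM in Col-0 and to 21314 to 41575 in nrpb2-3, and all 5 fell. They summed to 64450.5 to 81595.2 in ssrp1-2 and to 55107.5 to 83516.7 in spt16-2, where 0 of 5 were called. The 4 shoot meristem markers (STM, KNAT1, CLV3 and WUS) summed to 3.80 to 8.73 in Col-0, 27.8 to 31.3 in nrpb2-3, 19.2 to 21.5 in ssrp1-2 and 10.4 to 16.3 in spt16-2. Nearly all of this sum was STM and KNAT1, the 2 of the 4 that were tested, and both were called higher in nrpb2-3. Of these 2, 1 was also called higher in ssrp1-2 (adjusted p = 0.0029) and 0 in spt16-2 (lowest adjusted p = 0.052). CLV3 was at 0 to 0.082 and WUS at 0 to 0.253 over all 12 libraries, too low to test. The 6 markers of dividing cells summed to 60.1 to 105.7 in Col-0 and 86.2 to 130.3 in nrpb2-3, with the lowest value again in Col-0 replicate 1. The 4 root markers were low throughout, at 1.51 to 14.0, and EXPA7 was at 0 in every library of Col-0, ssrp1-2 and spt16-2. In whole seedlings more cells of a type and more RNA of a gene per cell cannot be told apart, and the part of tissue make-up in the 6 rises was not tested.

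Fold changes in nrpb2-3 also moved with transcript length. Over all tested genes with an annotated length, sorted by the longest transcript into 5 classes of about equal size, the median log2 fold change was −0.16, −0.07, 0.04, 0.10 and 0.24 from the shortest class to the longest. DCL1, SE, TGH, CBP80, HEN1, HST and AGO1 are in the longest class, HYL1 is in the middle class, and CBP20 and DDL are in the second shortest. DCL1, TGH, HEN1, HST and AGO1, the long genes that rose, were at 0.49 to 0.65 against their class median of 0.24. DDL was at 0.51 against −0.07, and CBP80, although long, was at 0.06. The part of length in the rises was not tested.

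**Figure D4:**
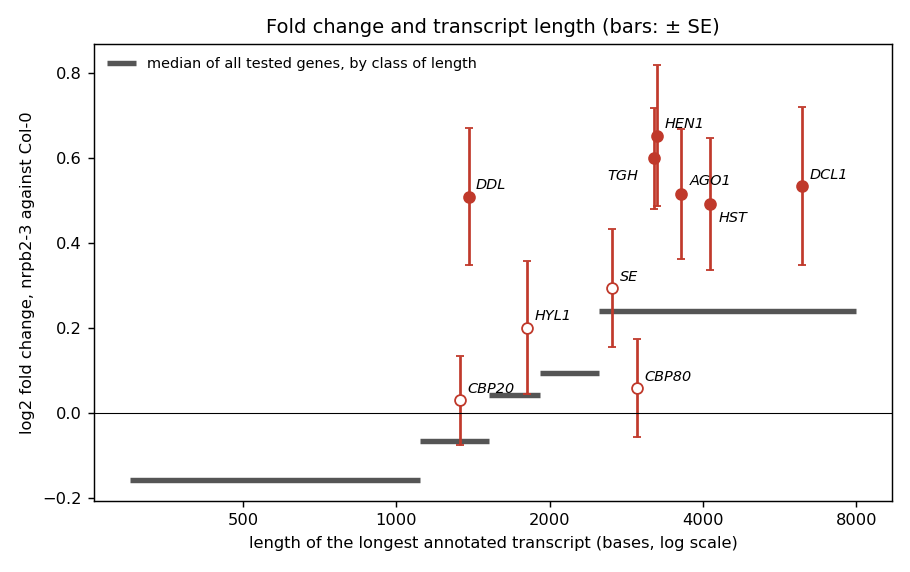
Log2 fold change in nrpb2-3 against Col-0 (vertical axis, bars ± SE) and length of the longest annotated transcript (horizontal log axis, bases; the bars of the shortest and longest classes are cut to fit) of the 10 genes, filled where called, over the median of all tested genes in each of 5 length classes. The medians climb from −0.16 to 0.24, and DDL stands farthest from the median of its class.

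In the 2 mutants of FACT the 10 genes were not detectably changed. In ssrp1-2 none passed the test, none had an unadjusted p under 0.05, and the lowest adjusted p was 0.63 (AGO1), where 0.557% of all tested genes were called. The 10 log2 differences ran from 0.03 (HYL1) to 0.28 (HEN1) with a median of 0.15, and their 95% intervals together spanned −0.30 to 0.64. In spt16-2 none passed, against 0.42% of all tested genes, and HST alone had an unadjusted p under 0.05 (0.34 ± 0.16 on the log2 scale, adjusted p = 0.58). The differences there ran from −0.05 (DDL) to 0.35 (HEN1) with a median of 0.12, and the intervals spanned −0.40 to 0.71. DESeq2 and limma also called 0 of 10 genes in both.

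All 3 mutants were set against the same Col-0 libraries, so their differences from it share the low Col-0 replicate 1. Without that library the median over the 10 genes was 0.05 in ssrp1-2 and 0.02 in spt16-2. Without the library labelled spt16-2 replicate 2 the median in spt16-2 was 0.13, and again 0 of 10 passed. That library was the highest of the spt16-2 group for HEN1, HST, AGO1 and CBP80 and the lowest of all 12 for DDL and CBP20. Set against each other, spt16-2 and ssrp1-2 differed in 0 of the 10 genes, with 0.0684% of all genes called. The largest difference of that pair was in DDL, −0.32 ± 0.16 on the log2 scale, with an interval of −0.67 to 0.03.

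Whether nrpb2-3 differed from the mutants of FACT was tested directly, against the mean of ssrp1-2 and spt16-2. The Col-0 levels do not enter this difference, but the Col-0 libraries were in the fit, its scaling and its estimate of spread. TGH and DDL were higher in nrpb2-3 and 0 genes were lower, where 30.6% of all tested genes were called, 15.6% higher and 15% lower. TGH was higher by 0.51 ± 0.10 on the log2 scale (adjusted p = 0.0022), close to its value against Col-0. DDL was higher by 0.40 ± 0.14 (adjusted p = 0.041). HEN1, at 0.33 ± 0.14, was not called (adjusted p = 0.088), but was with the replicate number as a block (adjusted p = 0.0497). DCL1 was at 0.34 ± 0.16, AGO1 at 0.25 ± 0.13 and HST at 0.22 ± 0.13, all short of the threshold in this fit of all libraries. CBP20 and CBP80 were at −0.02 and −0.01. The median over the 10 genes was 0.23, and over all tested genes it was 0.04. Leaving out 1 library at a time gave 1 or 2 called genes, TGH in each case. DDL stayed called only without ssrp1-2 replicate 2 or without spt16-2 replicate 1. Its call was thus lost without the library labelled spt16-2 replicate 2, in which DDL was lowest. With only nrpb2-3, ssrp1-2 and spt16-2 in the fit, 4 genes were called (DCL1, HEN1, TGH and DDL).

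Levels of different genes can be set side by side only per length, for which the authors' deposited length-scaled signal was used. AGO1 was the most abundant of the 10 transcripts in every genotype, at 40.8 to 60.4 in the 3 Col-0 libraries and 66.4 to 88.3 in nrpb2-3, and overlapped with no other gene of the set. SE, CBP20 and CBP80 followed in that order in each genotype. In Col-0 they were at 23.4 ± 5.68, 22.2 ± 0.64 and 18.7 ± 2.92 (mean ± SD, n = 3), and there SE overlapped the other two, while in the 3 mutants each of these stood apart from the next. HYL1 and DDL came next and overlapped in every genotype, at 12.96 ± 2.99 and 10.7 ± 1.80 in Col-0. TGH and HST were lower still, and overlapped in Col-0, ssrp1-2 and spt16-2 but not in nrpb2-3, where TGH was at 10.7 ± 0.52 and HST at 8.49 ± 0.68. DCL1 and HEN1 were the least abundant in every genotype and did not differ from each other beyond their spread, at 4.29 ± 1.32 and 3.999 ± 0.945 in Col-0, where DCL1 also overlapped HST. By this signal the DCL1 transcript was thus far below that of AGO1, and no protein was measured.

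Across the 12 libraries the genes did not all follow one another. HEN1 and HST followed each other most closely (Pearson r = 0.94 of log2 scaled CPM, 12 libraries), and HST and AGO1 nearly as closely (0.92). TGH and DDL had their highest value with each other (0.80). CBP20 had r from −0.22 to 0.40 with the others. These are descriptions of 12 points that share the group difference of nrpb2-3 and the low Col-0 replicate 1. Among 13695 other tested genes with a mean of at least 5 scaled CPM, the patterns most like DCL1 were those of AT4G38950 (r = 0.96), AT5G28740 (0.95) and AT3G28700 (0.94). The patterns most like AGO1 were those of CPSF160 (AT5G51660, 0.97), AT3G04490 (0.97) and AT5G01890 (0.96).

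The wider small RNA machinery was followed in 5 further lists with 47 genes, all tested. In nrpb2-3, 20 of the 47 rose and 1 fell, where 15.8% of all tested genes were higher and 15.1% lower. The median of the 47 was 0.41, and 37 of 47 values were positive, beside 10979 of the 20471 tested genes. In ssrp1-2 and spt16-2, 0 of 47 passed, with medians of 0.14 and 0.13. The unadjusted p was under 0.05 for 8 and 11 of the 47, and for 1919 and 1679 of the 20471 tested genes. There DESeq2 called 3 of the 47 in ssrp1-2 (AGO5, AGO9 and RDR2) and 1 in spt16-2 (AGO9), all higher, and limma called 0 in both. Against the mean of the mutants of FACT, 15 of the 47 were higher in nrpb2-3 and 3 lower, where 15.6% of all tested genes were higher and 15% lower. These 18 calls became 7 to 16 with 1 library left out, the fewest without nrpb2-3 replicate 3, with 9 without nrpb2-3 replicate 1, 10 without spt16-2 replicate 3, and 11 without any 1 of nrpb2-3 replicate 2, ssrp1-2 replicates 1 and 2 and spt16-2 replicate 1.

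**Figure D5:**
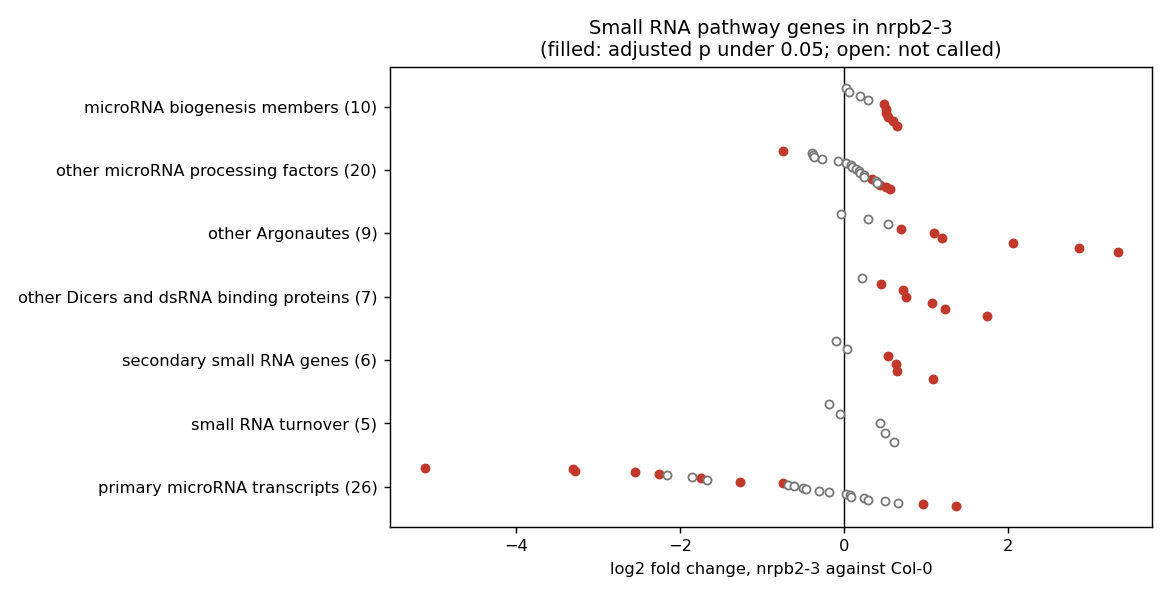
Log2 fold change in nrpb2-3 against Col-0 (horizontal axis) of every tested gene of each list (rows, number tested in brackets), filled where the adjusted p was under 0.05. The called Argonautes and Dicers lie to the right of 0, farther out than the 10 biogenesis genes, and 8 of the 10 called primary microRNA transcripts lie to the left.

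Of 9 other Argonautes, 6 rose in nrpb2-3 and 0 fell (median 1.095), beside 15.8% of all tested genes higher. AGO10, the closest relative of AGO1, which is known to sequester miR165 and miR166 in the shoot meristem, was at 19.3, 32.2 and 31.0 scaled CPM in Col-0 and at 61.3, 57.3 and 57.4 in nrpb2-3. Its log2 fold change was 1.095 ± 0.171 (adjusted p = 0.00054), and the groups were far apart. AGO10 was also higher in nrpb2-3 than in the mutants of FACT (0.75 ± 0.14, adjusted p = 0.0017). AGO4, which carries the small RNAs of DNA methylation, rose by 0.69 ± 0.13. The germline Argonautes AGO5 and AGO9 rose from very low levels, AGO5 from 0.03 to 0.30 scaled CPM in Col-0 to 0.94 to 1.84 in nrpb2-3 and AGO9 from 0.46 to 0.585 in Col-0 to 1.60 to 2.90 in nrpb2-3. AGO9 had similar values in the mutants of FACT, 1.14 to 3.09 in ssrp1-2 and 1.29 to 3.41 in spt16-2, where it was not called (adjusted p = 0.071 and 0.081). AGO2, the target of miR403 shown above, was not called in any comparison, with 11.4 to 15.6 in Col-0 and 15.002 to 17.4 in nrpb2-3.

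Of the other Dicers and the double-stranded RNA binding proteins, 6 of 7 rose in nrpb2-3 (median 0.76), again beside 15.8% of all tested genes. DCL2, which makes small RNAs from viral RNA, went from 7.16 to 9.40 scaled CPM in Col-0 to 16.1 to 22.1 in nrpb2-3, a log2 fold change of 1.23 ± 0.17 (adjusted p = 0.00025) and the smallest adjusted p of the 47 genes. DCL2 shares 847 bases with the tested gene AT3G03305 on the same strand, so its counts depend on how shared reads were assigned. DCL4, which makes trans-acting small RNAs, rose by 0.72 ± 0.17, DRB3 by 1.75 ± 0.30 and DRB5 by 1.08 ± 0.28. DRB2 was not called (0.22 ± 0.12).

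Of 6 genes of secondary small RNA production 4 rose, with the same 15.8% among all tested genes. They were the RNA-dependent RNA polymerases RDR2 (1.09 ± 0.18) and RDR1 (0.65 ± 0.16), the helicase SDE3 (0.64 ± 0.13) and SGS3, the partner of RDR6 (0.53 ± 0.12). RDR6 itself was not called against Col-0 (−0.10 ± 0.11). Against the mean of the mutants of FACT it was lower (−0.38 ± 0.10, adjusted p = 0.011), the 1 lower gene of the 6 beside 3 higher. Of 5 genes of small RNA turnover 0 were called against Col-0. SDN2, a nuclease that degrades microRNAs, was at 0.62 ± 0.23 there (adjusted p = 0.055). Against the mean of the mutants of FACT 2 of the 5 were higher and 0 lower. They were SDN1 (0.55 ± 0.19, adjusted p = 0.042) and SDN2 (0.59 ± 0.19, adjusted p = 0.032).

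Of 20 other factors of primary transcript processing 4 rose and 1 fell (median 0.17). With 30.9% of all tested genes called (15.8% higher and 15.1% lower), the 5 calls among 20 are no more frequent than the background, and the genes named here are single values. BRM, a chromatin remodeller that also binds SE, was at 0.56 ± 0.13, MAC7, of the MOS4-associated complex, at 0.51 ± 0.13, and the phosphatase CPL2 at 0.44 ± 0.13. RACK1A, a ribosome scaffold protein that also binds SE, fell by 0.75 on the log2 scale (SE 0.17, adjusted p = 0.0060), from 484.4, 698.1 and 693.6 scaled CPM in Col-0 to 391.95, 425.2 and 301.9. With library totals it was not called (−0.23). CPL1, which dephosphorylates HYL1, was not called against Col-0 (−0.27 ± 0.13). Against the mean of the mutants of FACT it was lower (−0.32 ± 0.11, adjusted p = 0.043), 1 of 2 lower genes of the 20 beside 4 higher.

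Transcripts that feed the pathway were counted at 325 microRNA loci, 26 of which had enough counts to be tested. In nrpb2-3, 8 of these 26 were lower and 2 higher (median −0.56), where 15.1% of all tested genes were lower and 15.8% higher. In ssrp1-2 and spt16-2, 0 of 26 passed, with 4 and 3 at an unadjusted p under 0.05, beside 1919 and 1679 of the 20471 tested genes. With library totals 4 were lower and 3 higher in nrpb2-3. In ssrp1-2 and spt16-2 DESeq2 called 0 and 1, and limma 0 and 0. The loci named here were chosen after their values were seen. MIR169m had 2.75, 1.62 and 1.88 scaled CPM in Col-0 and 0.04, 0.10 and 0.03 in nrpb2-3, a log2 fold change of −5.12 ± 0.46 (adjusted p = 1.5e-05). MIR163 went from 4.62, 1.36 and 1.61 in Col-0 to 0.59, 0.25 and 0.44 in nrpb2-3 (−2.55 ± 0.49). Both higher loci, MIR863 (1.36 ± 0.31) and MIR5026 (0.97 ± 0.25), lie inside the tested gene AT4G13495 on the same strand, so their counts cannot be told from reads of that gene. Of the 26 loci, 11 overlap some other gene in the annotation, and for 7 that gene was tested.

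The loci of the feedback microRNAs were sparsely counted. MIR162a, whose product pairs with the DCL1 site above, had 48, 44 and 27 counts in Col-0, 66, 43 and 82 in nrpb2-3, 50, 24 and 44 in ssrp1-2, and 53, 36 and 34 in spt16-2. The groups overlapped and the log2 difference in nrpb2-3 was 0.08 ± 0.37. MIR168a, whose product pairs with AGO1, had 5, 25 and 6 counts in Col-0, 5, 2 and 10 in nrpb2-3, 12, 13 and 12 in ssrp1-2, and 8, 5 and 6 in spt16-2. One Col-0 library held most of the Col-0 counts, and the difference in nrpb2-3 was not called (−1.67 ± 0.72, adjusted p = 0.092). MIR838 had 60 counts over the 12 libraries, 17 of them in nrpb2-3 replicate 3, and since it lies in an intron of DCL1 on the same strand, these cannot be told from unspliced DCL1 RNA. MIR403 had 38, MIR162b 4 and MIR168b 2, and these 4 loci were too low to test. Counts at a locus come from its primary transcript, or from a gene that overlaps it, and the mature microRNAs were not measured in these libraries.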

How the data were processed

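The authors deposited counts per gene for 12 libraries of total RNA from Arabidopsis seedlings, made with fastp 0.23.4 and HISAT2 2.2.1 on TAIR10, per the submitters' processing notes. How reads were counted, whether by strand and how multiply mapped reads were handled are not given in the sources used here. The authors also deposited a table named TPM, whose columns sum to 652496 to 1181546 and so differ from TPM. It holds a signal equal to the count over a gene length times a factor per library (largest relative deviation 0.00125 over 15748 genes), and was used for levels per length and for 1 alternative.

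The test of counts was edgeR 4.0.16 in R 4.3.3 (TMM, filterByExpr with a minimum count of 10, robust quasi-likelihood fit of all 12 libraries, genotype as single factor) in 5 comparisons: 3 of a mutant against Col-0, 1 between the mutants of FACT, and 1 of nrpb2-3 against the mean of those 2. Errors are an SE derived from the log2 fold change and the F statistic of its test. The procedure was run on simulated data with far fewer changed genes than were called in nrpb2-3, balanced up and down. That run does not cover a shift as wide as the one in nrpb2-3. Alternatives were RLE size factors, library totals, DESeq2 1.42.0, limma-trend 3.58.1 on log2 of the authors' signal plus 1 (at least 1 in 3 libraries), no filter, a block for the replicate number, a fit of only the groups compared, and each library left out. In 4 of the 6 pairs of genotypes every correlation of same-numbered deviations from the group means was above 0.1 (Col-0 with spt16-2, and the 3 pairs among mutants). Libraries of different numbers were not compared, so whether the numbers mark a shared batch is not known. No 2 libraries of a group agreed within sampling noise.

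The members and lists were chosen with earlier results of these data known. Named were all 10 genes, up to 4 called genes of each further list with the smallest adjusted p, genes said not to be called, the feedback microRNA loci, and the 3 genes most like DCL1 and AGO1. Symbols, lengths, overlaps and sequences came from RefSeq TAIR10.1, in which all 76 listed loci were found.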

Additional observations from a re-analysis of the deposited data

How the results depend on the processing

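The 10 genes kept 0 calls in ssrp1-2 and spt16-2 against Col-0, and between them, under every alternative. Against Col-0 the count of 6 in nrpb2-3 was 5 with RLE factors and with DESeq2 (DCL1 lost), 6 with limma, no filter or the replicate block, 3 with the groups alone, and 2 to 7 with 1 library left out. Without Col-0 replicate 3 it was 7, SE being added. HEN1 and TGH were called in each of these. Library totals with no factor raised the median of all tested genes in nrpb2-3 from 0.05 to 0.59 and called 10688 genes higher and 758 lower, 11446 in all, where TMM called 3238 and 3097. All 10 genes were then called, and their median stood 0.44 above that of all genes, where TMM gave 0.45. These 2 values are close by construction, since scaling moves all genes nearly alike. With library totals 39 of the 47 further genes were called, all higher, and RACK1A was no longer called (−0.23), while RDR6 turned to 0.44 and URT1 to 0.48. Against the mean of ssrp1-2 and spt16-2 library totals called 10 of the 10 genes, 38 of 47 and 11580 in all (10675 higher and 905 lower, against 3198 and 3070), and turned CBP20 to 0.43, CBP80 to 0.43, CPL1 to 0.12, AGO2 to 0.41, RDR6 to 0.079, HESO1 to 0.36 and URT1 to 0.29. There the count of 2 was 1 with RLE factors, 4 with the groups alone (DCL1 and HEN1 added), 3 with the replicate block, and 1 to 2 with 1 library left out, and the count of 18 further genes was 7 to 16.

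Primary microRNA transcripts called in nrpb2-3 against Col-0 were 10, 17 with limma and 6 with the groups alone. Against the mean of ssrp1-2 and spt16-2 they were 8, 14 with DESeq2, 14 with limma and 13 with no filter. In spt16-2 DESeq2 called 1. Further genes called in ssrp1-2 were 0, 3 with DESeq2, 1 with no filter, 1 with the replicate block (AGO9), and 0 to 1 with 1 library left out. In spt16-2 DESeq2 called 1. Over all genes, the 114 calls in ssrp1-2 were 289 with DESeq2, 192 with the replicate block, 37 with the groups alone and 42 to 58 with 1 library left out. The 86 in spt16-2 were 240 with DESeq2, 56 with limma, 42 with the groups alone and 32 to 40. The 14 between spt16-2 and ssrp1-2 were 49 with DESeq2, 22 with the groups alone and 4 to 7. Those of nrpb2-3 against the mean of both were 6268, and 3820 to 6244 with 1 library left out. The cause of these shifts was not tested, other than that fewer libraries enter where some are left out.

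For Col-0 with nrpb2-3 and with ssrp1-2 the correlation of same-numbered libraries was low for replicate 1 only (0.0236 and −0.0514). It was 0.261 and 0.375 for replicate 2, and 0.169 and 0.228 for replicate 3. The replicate block changed no call of the 10 genes other than HEN1 above. With 3 libraries a group the precision differed by gene and comparison. Among the 10 genes the smallest change called against Col-0 was 0.49 (HST in nrpb2-3), while 0.35 (HEN1) and 0.34 (HST) in spt16-2 were not called, so changes of that size in the mutants of FACT are not excluded.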
